A study of Mus musculus with 5 samples.

Results

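The SLAM family genes examined here were 8 of the 22350 protein-coding genes on the autosomes and chromosome X: the receptor genes Slamf1, Slamf6, Slamf7, Cd48, Cd84, Cd244 and Ly9, and the adaptor gene Sh2d1b1. They were chosen by name, with earlier results of these data known. Every peak that overlapped one of these genes or its 20 kb flanks (the gene's window) was taken as a peak of that gene. By this rule, 13 of 11676 Runx3 peaks and 25 of 34204 H3K4me1 peaks belonged to the SLAM genes, and each was counted once in these totals, although windows of neighbouring genes overlap.

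The data are ChIP-seq of IL-2-activated NK cells (NKC) from spleens of ICR mice. They were isolated by negative selection and cultured for 7 days with 1000 units/ml of human recombinant IL-2. The paper's methods add a sorting step for DX5-positive cells after this selection. The labels describe the cultured cells as uniformly positive for NKp46, the product of Ncr1. Chromatin was precipitated with a polyclonal antibody to Runx3 (2 libraries), a monoclonal antibody to H3K4me1 (1 library) or non-immune rabbit serum (NIS, 2 libraries). These libraries do not differ in genotype, strain or treatment, and NIS was the control in the peak calling. The paper's comparison of wild-type and Runx3-deficient cells was made on microarrays, which are not part of these data. The paper describes peak calling on joined reads of 2 biological repeats, whereas the labels give 1 library for H3K4me1. The peaks of each antibody form 1 list that holds only positions. Peak height, sequencing depth and the spread between the 2 Runx3 libraries thus cannot be read from the lists. All values below therefore have no replicate error and no test between groups was possible. All 6 NK cell marker genes examined (Ncr1, Klrb1c, Klrk1, Eomes, Tbx21 and Prf1) had a Runx3 peak and an H3K4me1 peak in their window, and 5 of them had a Runx3 peak at a start of their own. Among the markers of other cells, 3 of 4 T cell, 2 of 3 B cell and 1 of 2 myeloid genes had a Runx3 peak in the window and none had one at a start of its own. Of all protein-coding genes, 41.1% had a Runx3 peak in the window, 51.1% had an H3K4me1 peak there, and 13.3% had a Runx3 peak centred within 1 kb of a start of their own. The marker lists were chosen with earlier results of these data known. The paper already reports Runx3 binding at Ncr1, Klrk1 and other Klr genes in NKC, so the marker counts are not a test. Peaks in windows do not tell cell types apart, and expression was not analysed here.

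Receptors of the SLAM family are surface proteins of the immunoglobulin superfamily found on blood cells, and most of them bind a receptor of the same kind on the neighbouring cell. Cd244 differs in that its ligand is Cd48. Tyrosine motifs in the tails of most of these receptors recruit small adaptors with an SH2 domain, SAP (the product of Sh2d1a) and EAT-2 (the product of Sh2d1b1), and in NKC the adaptors decide whether engagement of the receptor promotes or restrains killing. Runx3 is a transcription factor with a Runt domain that recognises the RUNX motif, written TGTGGT or TGTGGC or, with a CpG, TGCGGT or TGCGGC. H3K4me1, the monomethylation of lysine 4 of histone H3, is enriched at enhancers.

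The sequences around the RUNX motifs in the Runx3 peaks of the SLAM genes are shown so that the motif matches counted further on can be seen in their context. Capitals mark the RUNX motif on either strand, so ACCACA is TGTGGT read from the opposite strand. Each stretch is given 5′ to 3′ on the strand of its gene, from mm9, and is centred on the motif closest to the centre of the peak. Stretches in a 5′ UTR are cut to 30 bases. At the promoters, the Sh2d1b1 stretch lay at chr1:172207345-172207450 (plus strand), the Cd244 stretch at chr1:173489437-173489466 (plus strand) and the Ly9 stretch at chr1:173537484-173537513 (minus strand).
Sh2d1b1: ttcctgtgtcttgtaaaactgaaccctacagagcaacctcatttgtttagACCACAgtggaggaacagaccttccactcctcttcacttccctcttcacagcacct
Cd244: tctgctctgtccTGTGGTgatgttggggca
Ly9: acttcaggaagtTGTGGTaagtgcatctcc

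In each of the other genes with a Runx3 peak the closest peak to the gene start was used. The Slamf7 stretch, in an intron, lay at chr1:173573904-173574009 (minus strand). The Cd48 stretch, upstream of the gene, lay at chr1:173607936-173608041 (plus strand), and the Slamf1 stretch, in an intron, at chr1:173719641-173719746 (plus strand).
Slamf7: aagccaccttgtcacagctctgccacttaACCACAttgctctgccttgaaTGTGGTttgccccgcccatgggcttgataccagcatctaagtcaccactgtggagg
Cd48: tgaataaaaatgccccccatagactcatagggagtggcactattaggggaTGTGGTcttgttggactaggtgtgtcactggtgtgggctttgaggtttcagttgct
Slamf1: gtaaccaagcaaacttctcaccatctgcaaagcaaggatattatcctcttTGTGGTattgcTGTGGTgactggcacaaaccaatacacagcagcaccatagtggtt

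The Cd244 gene had 3 more peaks around its start, and their stretches, added after the peaks were seen, show the sites that surround its promoter. The upstream stretch lay at chr1:173484172-173484277 and the intronic ones at chr1:173491455-173491560 and chr1:173492716-173492821, all on the plus strand.
Cd244 upstream: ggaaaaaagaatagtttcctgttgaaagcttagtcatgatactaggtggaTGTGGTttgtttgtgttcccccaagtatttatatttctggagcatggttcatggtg
Cd244 first intronic peak: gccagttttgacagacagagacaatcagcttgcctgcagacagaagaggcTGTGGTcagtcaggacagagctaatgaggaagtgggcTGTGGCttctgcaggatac
Cd244 next intronic peak: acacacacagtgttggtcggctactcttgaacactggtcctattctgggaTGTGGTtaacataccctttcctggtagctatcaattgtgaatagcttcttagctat

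In all 9 stretches the motif closest to the peak centre was TGTGGT. Slamf1 had 2 of them in the same direction with 5 bp between, the first of them 4 bp from the peak centre, and Slamf7 had 2 in opposite directions with 15 bp between. In the first intronic peak of Cd244 a TGTGGT was followed by a TGTGGC after 31 bp. The Ly9 stretch has the ETS motif AGGAAG 1 bp before its RUNX motif, and the Cd48 stretch holds the T-box motif AGGTGT 11 bp from it. Cd84 and Slamf6 had no Runx3 peak, so no stretch is shown for them.

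The Runx3 and H3K4me1 peaks were distributed unequally over the SLAM genes. Runx3 peaks were found in the windows of 6 of the 8 genes, beside 41.1% of all protein-coding genes. Among the 9066 genes with a window as wide as those of the SLAM genes (49.394 to 91.022 kb), 46.4% had one. Cd244 had 5 Runx3 peaks, Slamf7 had 3, Ly9 and Sh2d1b1 had 2 each, Cd48 and Slamf1 had 1 each, and Cd84 and Slamf6 had 0. H3K4me1 peaks were found in all 8 windows, beside 51.1% of all protein-coding genes and 57.5% of those with a window of like width. Ly9 and Slamf7 had 9 each, Cd244 had 8, Cd84 had 2, and the other 4 genes had 1 each. Because windows overlap, 7 of the H3K4me1 peaks were counted both for Ly9 and for Cd244 or Slamf7.

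**Figure D1:**
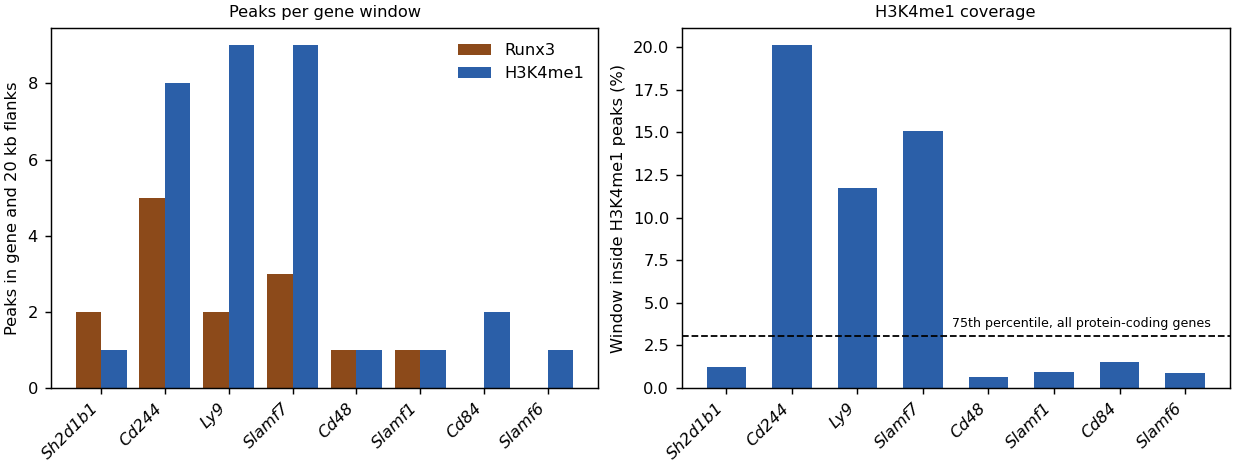
Peaks in the window of each SLAM gene (left, number of Runx3 and H3K4me1 peaks) and percent of the window inside H3K4me1 peaks (right; the dashed line is the 75th percentile of all protein-coding genes, 3.06%). Bars are single values from 1 list per antibody; Cd244, Ly9 and Slamf7 are above the line and the other 5 genes below it. Peaks in overlapping windows are counted for each gene.

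The 7 receptor genes lie in 1 cluster of 389.76 kb on chromosome 1, in the order Cd244, Ly9, Slamf7, Cd48, Slamf1, Cd84 and Slamf6, and Sh2d1b1 lies apart from it on the same chromosome. The cluster held 10 Runx3 peaks, or 2.57 per 100 kb, beside 0.398 per 100 kb over chromosome 1 and 0.442 over all chromosomes examined. Within the cluster the peaks lay at one end. The 89.826 kb from the start of Cd244 to the outer end of Slamf7 held 8 Runx3 peaks (8.91 per 100 kb) and 18 H3K4me1 peaks (20.04 per 100 kb), and H3K4me1 peaks covered 22.7% of it. The 266.944 kb from Cd48 to the end of Slamf6 held 1 Runx3 peak (0.375 per 100 kb) and 4 H3K4me1 peaks (1.498 per 100 kb), which covered 1.02%. This division of the cluster was chosen after the peaks were seen, so it is a description. The density of Runx3 peaks in the Cd48 to Slamf6 stretch was close to that of chromosome 1 as a whole. Its H3K4me1 coverage was close to the 0.828% of chromosome 1. The chromosome figures also take in sequence far from genes. In gene windows of like width, H3K4me1 coverage had a mean of 2.93% and a median of 0.907%. Such windows held a mean of 0.766 Runx3 peaks, and their density per 100 kb was not calculated.

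**Figure D2:**
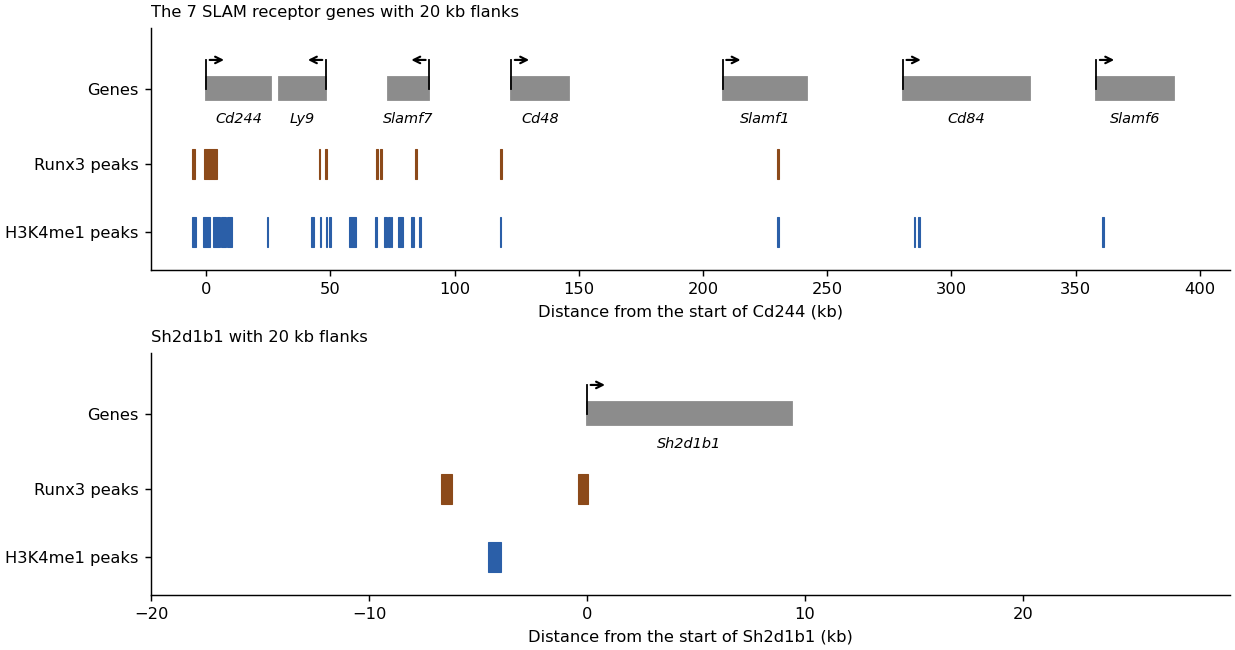
Map of the SLAM receptor cluster (top) and of Sh2d1b1 (bottom), to scale, with position in kb from the start of Cd244 or Sh2d1b1. Grey boxes are genes, arrows mark their starts and directions, and bars are Runx3 and H3K4me1 peaks; bars closer than the line width merge. Most peaks lie between Cd244 and Slamf7, and the Cd84 and Slamf6 genes hold H3K4me1 peaks only.

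The intergenic intervals differed in the same way. The 24992 bp between Ly9 and Slamf7 held 3 Runx3 and 6 H3K4me1 peaks, including those that ran into the interval from a gene, and the 32990 bp between Slamf7 and Cd48 held 1 of each. No peak of either list was found between Cd244 and Ly9 (3305 bp), between Cd48 and Slamf1 (61868 bp), between Slamf1 and Cd84 (38512 bp) or between Cd84 and Slamf6 (26796 bp). After the Slamf1 peak, no Runx3 peak occurred for 415731 bp, a stretch that holds Cd84, Slamf6 and 5 H3K4me1 peaks.

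Cd244, an NKC receptor that can activate or inhibit killing, was the SLAM gene with the most Runx3 peaks. Of the 22350 protein-coding genes, 344 (1.54%) had 5 or more in the window, and 163 had more than 5. Among the genes with a window of like width, 93 (1.03%) had 5 or more. A peak of 2203 bp, chr1:173488320-173490522, covered the gene start, with its centre 97 bp downstream, and ranked 10 by width among all 11676 Runx3 peaks. The next peak, chr1:173490542-173492489, began after a gap of 19 bp, was 1948 bp wide (rank 21) and lay in an intron 2191 bp after the start. A peak of 1012 bp, chr1:173492545-173493556, followed after 55 bp. Together they formed a nearly unbroken run, and a further peak of 1153 bp, chr1:173483585-173484737, lay 5163 bp upstream of the start. The count of 5 takes the peaks of the run separately. With peaks closer than 1 kb joined, the windows of all SLAM genes held 10 Runx3 peaks in place of 13. The shares of genes given above were not recounted with joined peaks. The remaining peak of the window, chr1:173534699-173535270, lay in an intron of Ly9 and reached 750 bp into the window of Cd244. Counted by the nearest gene start, this peak belonged to Ly9 alone and Cd244 had 4 Runx3 peaks.

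**Figure D3:**
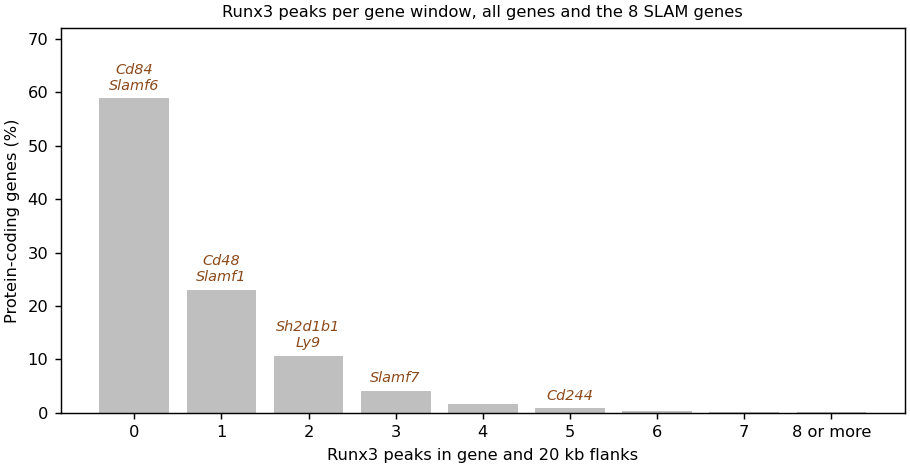
Percent of the 22350 protein-coding genes (bars) by the number of Runx3 peaks in the gene and its 20 kb flanks, with the SLAM genes written above the bar they belong to. Cd244, with 5 peaks, is in the tail that holds 1.54% of genes, and Cd84 and Slamf6 are among the genes without a Runx3 peak. The adjoining peaks at the start of Cd244 are counted separately.

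The H3K4me1 list also held wide peaks around the start of Cd244. Its 5 widest peaks there measured 1610, 2582, 2771, 2187 and 2246 bp, against a median of 689 bp for all H3K4me1 peaks. They ran from 5756 bp upstream of the gene start to 10548 bp downstream, with the widest in an intron. The gaps between them were 2997, 1394, 215 and 303 bp. H3K4me1 peaks covered 20.1% of the window of Cd244, a coverage reached by 349 protein-coding genes (1.56%). Cd244 was the only one of the 8 SLAM genes whose start lay inside an H3K4me1 peak. The Runx3 peak at the start, the upstream peak and the last peak of the run lay entirely inside H3K4me1 peaks. The centre of the first intronic peak lay between 2 H3K4me1 peaks, 759 bp from one and 636 bp from the other, and 28.4% of that Runx3 peak was overlapped by them.

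**Figure D4:**
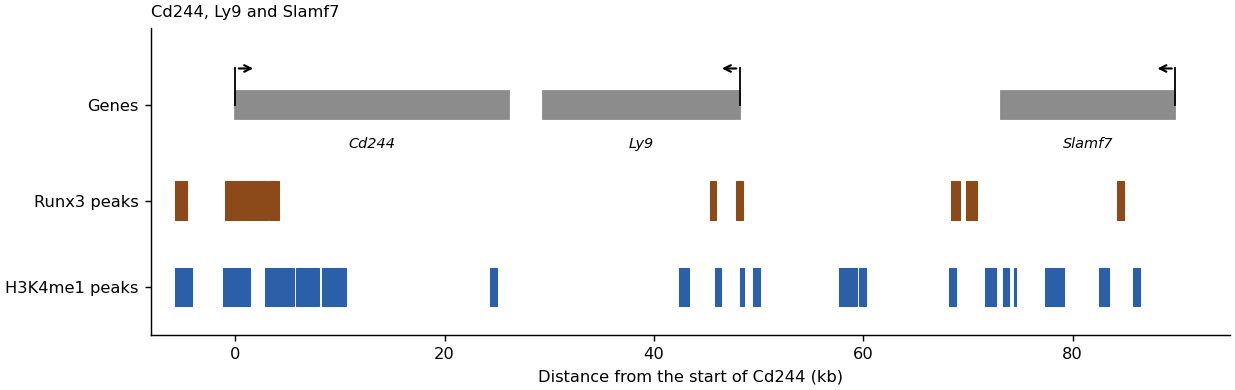
Runx3 and H3K4me1 peaks over Cd244, Ly9 and Slamf7, to scale, with position in kb from the start of Cd244; grey boxes are genes and arrows their starts. The 3 adjoining Runx3 peaks at the start of Cd244, separated by 19 and 55 bp, are drawn as 1 block, and the Runx3 peaks near Slamf7 lie in its intron and beyond its 3′ end.

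Ly9, which encodes a receptor that binds itself on other cells and is transcribed towards Cd244, had 2 Runx3 peaks. The first, chr1:173537143-173537852 (710 bp), was centred in the UTR 44 bp after the gene start and 6 bp from the start of a transcript. The other, the intronic peak of 572 bp already described, was centred 2557 bp after the start. Of the window of Ly9, 11.7% was inside H3K4me1 peaks, a coverage reached by 5.65% of genes. Only 2 of the 9 H3K4me1 peaks of this window overlapped Ly9 itself, and 7 were also counted for Cd244 or Slamf7. Some of the shared ones lay in the body of Cd244, so the coverages of these neighbours are not separate values. The start of Ly9 itself lay 54 bp from the nearest H3K4me1 peak. The centre of the Runx3 peak at the start lay between H3K4me1 peaks, and only the nearest of these overlapped that Runx3 peak, over 36.3%. A Runx3 peak of 833 bp, chr1:173557706-173558538, missed the window of Ly9 by 165 bp and was counted for Slamf7. Counted by the nearest gene start it belonged to Ly9, which then had 3 Runx3 peaks, and Slamf7 had 2. It was the Runx3 peak closest to a window edge from outside.

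Slamf7, the gene of a receptor that activates NKC through EAT-2, had 3 Runx3 peaks but none at its start. A peak of 698 bp, chr1:173573569-173574266, lay in an intron 5232 bp after the start. The other peaks, of 1040 bp (chr1:173559142-173560181) and 833 bp, lay between Slamf7 and Ly9, beyond the 3′ end of Slamf7. As many or more Runx3 peaks were found in 7.36% of protein-coding genes and in 7.17% of those with a window of like width. H3K4me1 peaks covered 15.1% of the window, a coverage reached by 3.37% of genes, and the nearest was 3357 bp from the start. The intronic Runx3 peak and the peak of 1040 bp had their centres between H3K4me1 peaks and overlapped none, and the peak of 833 bp was overlapped over 52.3%.

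Sh2d1b1, the adaptor gene, had a Runx3 peak at its promoter, chr1:172207088-172207545, centred 191 bp before the gene start, and another, chr1:172200808-172201304, centred 6451 bp before it. They were the 2 narrowest of the 13, 458 and 497 bp wide. Neither overlapped an H3K4me1 peak, and the only H3K4me1 peak of the window, chr1:172202941-172203559, lay 3948 bp before the gene start. The promoter peak was the only one of the 13 with no H3K4me1 peak within 2 kb of its centre. The neighbouring adaptor gene Sh2d1b2, which encodes ERT, had 2 Runx3 and 2 H3K4me1 peaks in its window but no Runx3 peak within 1 kb of its start. The windows of the 2 adaptor genes overlap, and 1 of these Runx3 peaks, the upstream peak of Sh2d1b1, and 1 of the H3K4me1 peaks, the only one of Sh2d1b1, were counted for both genes. The promoter stretch of Sh2d1b1 matched the start region of Sh2d1b2 without gaps in 84 of 106 bases (79.2%). The RUNX motif was present there too, 10 bp after the start of Sh2d1b2, in the stretch chr1:172162878-172162907 (plus strand), which lay in no peak of either list.
Sh2d1b2: tcatttgtttagACCACAgtggaggaacag

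Reads were kept by the authors when they aligned uniquely. Of the 962 overlapping 40-base words within 500 bp of the Sh2d1b1 start, 68.2% occurred once in the genome, and 306 (31.8%) were also found in the Sh2d1b2 region. For Sh2d1b2 70.7% occurred once. The Sh2d1b1 promoter peak had 81.4% such words and the other 12 Runx3 peaks at least 96.4%. How far this bore on the peaks at either adaptor gene was not tested.

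Cd48, which encodes the ligand of Cd244 and is itself anchored to the membrane by a lipid, had a single Runx3 peak, chr1:173607656-173608408 (753 bp), centred 4108 bp before the gene start. It was overlapped over 52.6% by the only H3K4me1 peak of the window, which was 396 bp wide. Slamf1, the gene of the founding receptor of the family, had a single Runx3 peak too, chr1:173719338-173720058 (721 bp), in an intron 22440 bp after the start. The only H3K4me1 peak of that window overlapped 57.6% of it. In both genes the single Runx3 peak and the single H3K4me1 peak thus overlapped. A count of 1 or more Runx3 peaks was found in 41.1% of all genes.

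Cd84 and Slamf6, genes of receptors that bind their own kind, had no Runx3 peak. The nearest, the Slamf1 peak, lay 50130 bp from the start of Cd84, 29770 bp outside its window, and 127948 bp from the start of Slamf6. They were not free of H3K4me1. Cd84 had peaks of 578 and 824 bp in an intron 4630 and 6542 bp after its start, and Slamf6 had a peak of 635 bp in an intron 2633 bp after its start. Of the 11432 protein-coding genes with an H3K4me1 peak, 33.8% had no Runx3 peak. The gene body of Cd84 held the smallest share of 40-base words that occur once in the genome, 72.5%, against 86.4 to 99.3% in the other 7 genes, while 99.8% of those within 500 bp of its start occurred once. Whether peaks were missed in the repeated parts was not tested.

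Runx3 peaks were centred within 1 kb of a start of the same gene in 3 of the 8 SLAM genes, Sh2d1b1, Cd244 and Ly9, beside 13.3% of all protein-coding genes. With any annotated gene start counted, the same 3 promoter peaks were 23.1% of the 13, against 25.3% for all Runx3 peaks, and the rest are called distal. The centres of 6 peaks lay between genes, 5 in introns and 2 in an exon. The median width of the 13 was 753 bp, with a range of 458 to 2203 bp, beside a median of 704 bp for all.

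Overlap with H3K4me1 was found for 9 of the 13 Runx3 peaks, 69.2% (exact Clopper-Pearson 95% interval 38.6 to 90.9%), beside 48.4% of all Runx3 peaks. The interval, like those below, covers counting error only, for peaks that are neighbours and not independent, and it contains the share of all peaks. Of the 3 promoter peaks 2 overlapped H3K4me1, beside 20.5% of all promoter peaks, and of the 10 distal ones 7 did, beside 57.8% of all distal peaks. The centre lay inside an H3K4me1 peak for 6 of 13 (46.2%, beside 28.2% of all). It lay between H3K4me1 peaks, with one within 2 kb on both sides, for 4 (30.8%, beside 13.9%). From the other side, 8 of the 25 H3K4me1 peaks (32.0%) overlapped a Runx3 peak, beside 19.9% of all H3K4me1 peaks.

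The RUNX motif was present in all 13 peaks, 38 times in total, and in 96.0% of all Runx3 peaks. Among equally wide control windows, placed 10 kb away from each Runx3 peak on both sides, 69.8% held it. In the central 200 bp, 10 of the 13 (76.9%, interval 46.2 to 94.96%) held the motif, and so did 76.9% of all Runx3 peaks. By variant, 30 of the 38 were TGTGGT, found in 13 peaks, and 8 were TGTGGC, found in 7. The variants TGCGGT and TGCGGC were absent from the 13 peaks, a count of 0 that allows a share of up to 24.7%, and were present in 21.8 and 19.2% of all Runx3 peaks. The peaks of the SLAM genes held fewer CpG, with a median of 8.05 per kb against 13.9 for all Runx3 peaks, and a median GC content of 44.8% against 49.6%. Pairs of RUNX motifs up to 50 bp apart were found in 6 of 13 peaks (46.2%), beside 45.5% of all.

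**Figure D5:**
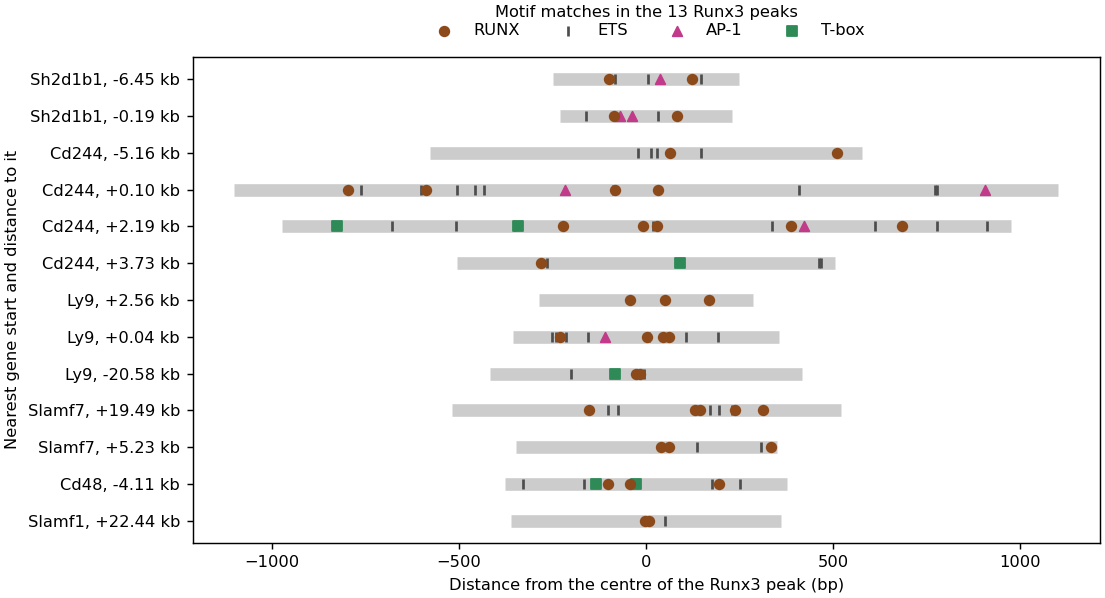
Positions of RUNX, ETS, AP-1 and T-box matches in the 13 Runx3 peaks of the SLAM genes. Grey bars are the peaks to scale, the x axis is the distance from the peak centre in bp along the genome, and each row gives the nearest gene start and the distance of the centre to it in kb; all 13 rows hold at least 1 RUNX match.

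Motifs of other factors were searched on both strands in the same peaks. ETS factors, which often bind next to Runx proteins, were represented by AGGAAA or AGGAAG and by CGGAAA or CGGAAG. An ETS motif was found in 12 of 13 peaks, 50 times, beside 91.4% of all Runx3 peaks and 84.6% of the control windows. In the same 12 peaks an ETS motif lay within 50 bp of a RUNX motif (92.3%), beside 59.2% of all Runx3 peaks, and the exception was the intronic peak of Ly9. The gap was 1 bp in the promoter peaks of Cd244 and Ly9 and 2 bp in the peak of 1040 bp beyond Slamf7. Spacing of ETS and RUNX motifs was not counted in the control windows. The mean width was 969 bp for the 13 peaks and 745 bp for all Runx3 peaks. The bearing of width on this share was not tested. AP-1, a factor of activated lymphocytes, was represented by TGACTCA or TGAGTCA. It was found in 5 of 13 peaks (38.5%, interval 13.9 to 68.4%), beside 26.2% of all and 12.6% of the control windows. These 5 were both peaks of Sh2d1b1, the peaks at the start and in the first intronic position of Cd244, and the promoter peak of Ly9. An AP-1 motif within 50 bp of a RUNX motif was found in 2 of 13, beside 12.7%. The T-box motif AGGTGT, of the kind bound by Eomes and T-bet, was found in 4 of 13 peaks (30.8%), beside 38.6% of all and 36.7% of the control windows. It was within 50 bp of a RUNX motif in 2, beside 15.7%. No RUNX motif overlapped an ETS or T-box match. A match is a run of letters in the genome, not a measured binding site.

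Slamf8, a receptor gene outside the cluster, had 2 Runx3 and 3 H3K4me1 peaks in its window, and Slamf9 had 0 and 2. Of the other adaptors, Sh2d1b2 had 2 of each and Sh2d1a, the SAP gene on chromosome X, had 0 and 1. Thus 2 of these 4 genes had a Runx3 peak, beside 41.1% of all genes, and 0 of 4 had one at a start of their own, beside 13.3%.

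Genes of the enzymes that act downstream of SLAM receptors had Runx3 peaks in 9 of 9 cases, beside 41.1% of all protein-coding genes, with a median of 3 and a range of 1 to 4. All 9 had H3K4me1, beside 51.1% of all. Fyn, the kinase brought in by SAP, had 4 Runx3 and 41 H3K4me1 peaks. Inpp5d, which encodes the lipid phosphatase SHIP-1, had 4 and 22, and both genes had a Runx3 peak at a start of their own. Plcg1 and Plcg2, the phospholipases that raise calcium, had 3 and 3 and 2 and 18. Vav1, an exchange factor for small GTPases, had 2 and 14, Csk, which restrains Src kinases, had 3 and 10, and Prkcq, a protein kinase C gene, had 3 and 13. The tyrosine phosphatase genes Ptpn6 and Ptpn11 had 1 and 10 and 1 and 11. Several of these genes are long, which widens their windows, so the counts are not compared with those of the SLAM genes. For the same reason the shares of all protein-coding genes are not a background of like width for these 9 genes. The list was also chosen with earlier results of these data known, so 9 of 9 is a description.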

How the data were processed

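Reads of 40 bp were aligned to mm9 with ELAND, and peaks were called by the authors with MACS on joined, uniquely aligned reads against NIS. The deposited values are peak starts and ends in bp, 1 list per antibody, with no score and no values per library. Starts, counted from 0 in the lists, are given from 1. Genes came from GENCODE M1 and sequences from the mm9 genome, for the 19 autosomes and X. A peak was counted for a gene when at least 1 bp overlapped the gene or its 20 kb flanks. Motifs were exact matches on either strand. Intervals are exact Clopper-Pearson at 95%. With 1 list per antibody no test was run, and members are set beside all genes or peaks. All 8 genes are named. The others are on lists of relatives, signalling partners and cell markers. The members and lists were chosen with earlier results of these data known. The counting steps were tested on simulated data: 0 of 500 windows differed from a direct count and 500 of 500 planted motifs were found. Other flanks, peak widths of at least 500 bp, joined peaks, nearest starts and stricter overlaps were tried. Calculations used python 3.11.15, numpy 2.4.6, pandas 2.3.3, scipy 1.17.1, pysam 0.24.0, samtools 1.23.1 and matplotlib 3.10.9.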

Additional observations from a re-analysis of the deposited data

How the results depend on the processing

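No paired analysis was possible because each antibody has 1 list of peaks, and for the same reason no library could be left out. A stricter threshold of the peak caller could not be tried, since the lists hold no scores, so peaks of at least 500 bp were used in its place. Of 34 alternative values, 6 moved: a count by more than 1.5 times, or a share out of the 95% interval of the reported share, which is wide for 13 peaks and narrow for all genes. Without flanks the SLAM genes held 8 Runx3 and 16 H3K4me1 peaks, in place of 13 and 25. The share of protein-coding genes with a Runx3 peak was 23.2% without flanks, 28.8% with flanks of 5 kb, 55.4% with flanks of 50 kb and 32.9% over all annotated genes. The number of SLAM genes with a Runx3 peak was 5 without flanks, where Cd48 was lost, 5 with peaks of at least 500 bp, where Sh2d1b1 was lost, and 7 with flanks of 50 kb, where Cd84 was gained. An H3K4me1 peak was found in 6 of the 8 genes without flanks, where Sh2d1b1 and Cd48 were lost, and in 7 with peaks of at least 500 bp, where Cd48 was lost. Shares of all protein-coding genes under the same rules are not given for H3K4me1, nor for Runx3 peaks of at least 500 bp. These counts therefore have no background beside them. The share of Runx3 peaks of the SLAM genes overlapping H3K4me1 ran from 46.2% when at least 50% of the Runx3 peak had to be covered to 84.6% when an H3K4me1 peak within 1 kb was enough. Shares of all Runx3 peaks under these 2 rules are not given, and the 48.4% of all Runx3 peaks holds for an overlap of at least 1 bp. Depth per library is not in the lists, so a gene without a peak is one where none was called.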
